A study of Homo sapiens with 8 samples.

Results

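The feedback genes of MAPK signaling examined here were DUSP1, DUSP4, DUSP5, DUSP6, DUSP8, DUSP10, SPRY2, SPRY4, SPRED1 and SPRED2. Each of these 10 genes was read by 1 probeset that the platform annotation assigns to that gene alone, so that 10 of the 33297 probesets on the array were described. They were chosen by gene symbol, as a transcript readout of signaling from the FGF receptor to ERK. The cells were DU145, an established human prostate cancer line, kept without serum from the day before treatment in all 4 groups. Mock cells were untreated. According to the sample labels, the FGF19 group received 50 ng/ml FGF19 with 100 µg/ml heparin for 100 min, the TNFα group 50 ng/ml TNFα for 90 min, and the FGF19 + TNFα group the same FGF19 and heparin 10 min ahead of 90 min of TNFα. The methods of the study give other concentrations of heparin and TNFα. No group received heparin without FGF19, so that FGF19 and heparin cannot be told apart, and "FGF19" stands for both below. Every group held 2 arrays, labelled as biological replicates of this 1 cell line.

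ERK, JNK and p38 are MAP kinases that are switched on by phosphorylation of a threonine and a tyrosine in their activation loop. The DUSP genes encode dual-specificity phosphatases, which remove both phosphates. DUSP6 acts mainly on ERK in the cytoplasm, DUSP4 and DUSP5 act in the nucleus, DUSP8 and DUSP10 prefer JNK and p38, and DUSP1 is a nuclear, immediate-early phosphatase for all these kinases. Sprouty proteins (SPRY) restrain receptor tyrosine kinase signaling upstream of RAF, and SPRED proteins bring neurofibromin to RAS and so lower its activity. Many of these genes are transcribed in response to the kinases that their products inhibit, which is why they are read as feedback genes. FGF19 signals through FGFR4 with the co-receptor KLB.

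Median signals were 103.0 to 106.6 on the arrays given FGF19 and 99.5 to 102.4 on the others. The 20th percentiles were 34.6 to 36.6 and 30.7 to 31.6. Signal levels of the arrays thus differed with FGF19, without overlap. All 5 epithelial markers listed (EPCAM, KRT8, KRT18, KRT19 and CDH1) lay above the median of every array, while PTPRC of leukocytes and DCN and LUM of fibroblasts lay below the 20th percentile of every array. The other leukocyte, endothelial and fibroblast markers listed (CD3E, CD14, PECAM1, CDH5, VWF, COL1A1 and PDGFRB) lay above the 20th percentile of every array. Of these, CDH5 alone lay above the median of every array, and COL1A1 lay above it on 7 arrays. KRT8 and KRT19 differed among the groups, and the summed signal of the 5 epithelial markers was 9310.2 to 9689.4 in Mock and 6437.4 to 7117.6 with FGF19. In log2 signal, arrays of the same group correlated at 0.967 to 0.980 across probesets, arrays differing in TNFα alone at 0.962 to 0.981, and arrays differing in FGF19 at 0.933 to 0.959. In such bulk RNA, a change per cell and a change in the share of cells that express a gene cannot be told apart.

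RefSeq (GRCh38.p14) promoter windows were available for 8 of the 10 genes, among which 12 transcription start sites were listed. The 250 bases upstream of a start are shown, 5′ to 3′, for some of these genes. The windows of SPRED1 and SPRED2, which rose with FGF19, and of SPRY2 are not shown. DUSP1 was the gene that fell with FGF19, DUSP6, DUSP10 and SPRY4 were the genes that rose with TNFα, and DUSP8 is shown because its window shares a motif with that of DUSP1. For DUSP10 the window is that of the more distal of its 2 starts. Capitals mark each match to the cAMP response element.
DUSP1 (chr5:172771196-172771445, minus strand): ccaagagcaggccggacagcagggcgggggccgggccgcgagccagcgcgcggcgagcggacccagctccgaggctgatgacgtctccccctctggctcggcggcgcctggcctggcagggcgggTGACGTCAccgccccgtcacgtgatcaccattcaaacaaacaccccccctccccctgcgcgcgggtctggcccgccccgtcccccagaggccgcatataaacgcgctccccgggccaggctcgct
DUSP8 (chr11:1572272-1572521, minus strand): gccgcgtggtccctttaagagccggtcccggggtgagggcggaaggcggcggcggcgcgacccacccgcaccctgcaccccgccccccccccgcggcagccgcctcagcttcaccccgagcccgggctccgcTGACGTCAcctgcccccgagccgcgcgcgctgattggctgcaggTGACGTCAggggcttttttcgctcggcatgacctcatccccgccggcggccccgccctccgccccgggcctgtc
DUSP6 (chr12:89352502-89352751, minus strand): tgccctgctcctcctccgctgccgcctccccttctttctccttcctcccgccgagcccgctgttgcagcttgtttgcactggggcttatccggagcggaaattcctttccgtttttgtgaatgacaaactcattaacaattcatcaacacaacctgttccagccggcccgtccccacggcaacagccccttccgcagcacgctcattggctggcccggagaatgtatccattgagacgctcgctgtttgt
DUSP10 (chr1:221742090-221742339, minus strand): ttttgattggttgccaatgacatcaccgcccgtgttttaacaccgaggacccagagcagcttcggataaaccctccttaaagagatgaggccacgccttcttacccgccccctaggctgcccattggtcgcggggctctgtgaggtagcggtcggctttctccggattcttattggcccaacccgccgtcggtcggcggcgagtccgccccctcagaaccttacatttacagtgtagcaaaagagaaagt
SPRY4 (chr5:142324248-142324497, minus strand): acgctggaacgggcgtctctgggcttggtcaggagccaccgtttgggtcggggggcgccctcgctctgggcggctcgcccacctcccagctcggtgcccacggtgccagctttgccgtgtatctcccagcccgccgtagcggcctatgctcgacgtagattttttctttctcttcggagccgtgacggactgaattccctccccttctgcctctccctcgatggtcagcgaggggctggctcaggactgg
The sequence TGACGTCA, the cAMP response element, was found 125 bases upstream of the DUSP1 start and 118 and 74 bases upstream of the DUSP8 start. It was present in 1.65% of the 35116 promoter windows of this length. The other motifs searched on both strands were AP-1 (TGANTCA), ETS (CCGGAA), the CArG box and the NFκB site, which 6.57%, 14.5%, 1.16% and 9.96% of all windows hold. In the windows of the 8 genes, the only further match was 1 ETS sequence in a window of SPRY2, and no matches overlapped. The windows of DUSP6, DUSP10 and SPRY4 held none of these letters, which says nothing of sites elsewhere.

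Across the 4 groups, DUSP1, DUSP6, DUSP10, SPRY4 and SPRED2 differed (limma's moderated F test at an adjusted p under 0.015). These were 5 of the 10 feedback genes, and 20.9% of all probesets passed the same test. SPRY4 spanned 3.91-fold between its lowest and highest group mean (adjusted p = 0.00213), DUSP1 2.24-fold (adjusted p = 0.00222), DUSP10 2.19-fold (adjusted p = 0.00244), SPRED2 2.04-fold (adjusted p = 0.00389) and DUSP6 1.78-fold (adjusted p = 0.00363). DUSP5, SPRED1 and SPRY2 had adjusted p-values of 0.0304, 0.058 and 0.132, and DUSP8 and DUSP4 of 0.512 and 0.517. Without Mock replicate 1 only DUSP1 and SPRY4 passed, and without Mock replicate 2 only DUSP1, DUSP10 and SPRY4. DUSP6 lost its call without either TNFα array (adjusted p = 0.0214 and 0.0182), and SPRED2 without either FGF19 + TNFα array (adjusted p = 0.0157 and 0.019).

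**Figure D1:**
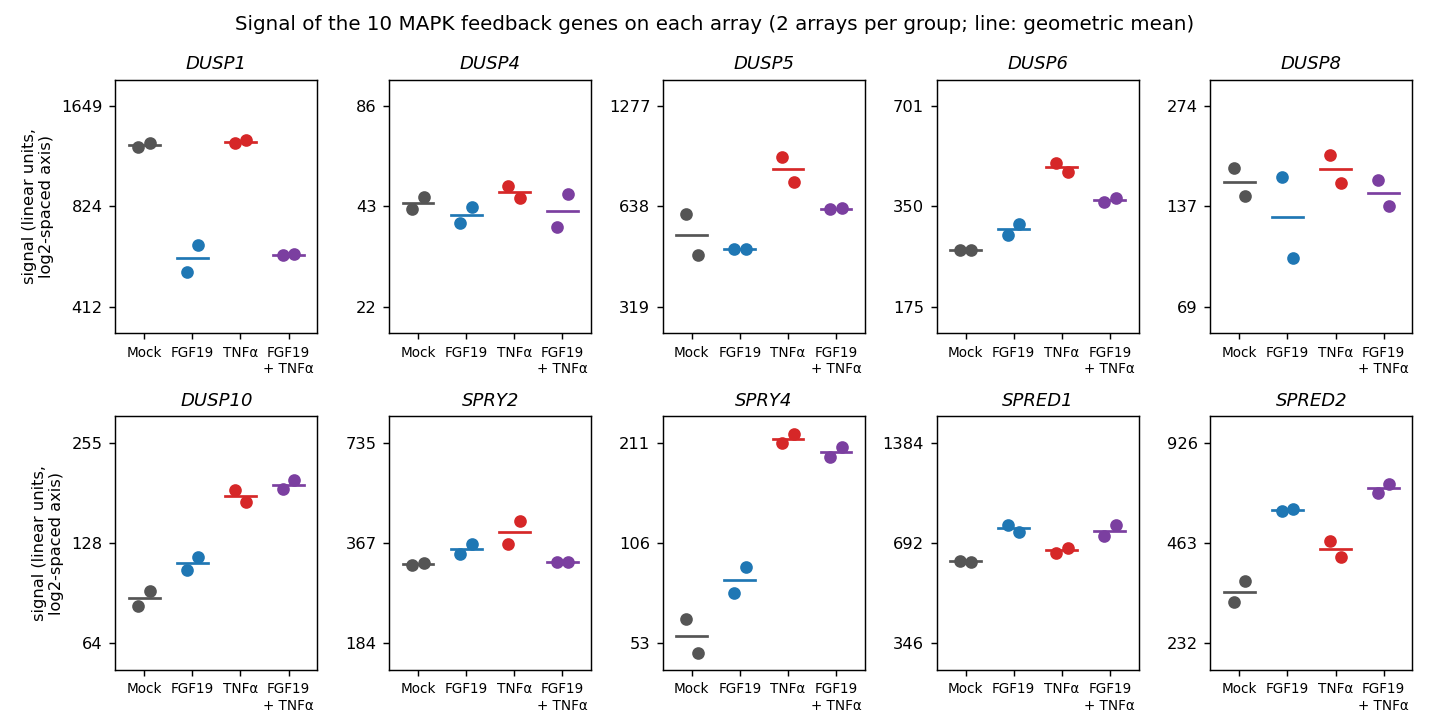
Signal of each feedback gene (vertical axis, linear PLIER units on a log2-spaced axis of equal span in every panel) on the 2 arrays of each group, with the geometric mean as a line. SPRY4, DUSP10 and DUSP6 are higher on both TNFα arrays than on the Mock arrays, and DUSP1 is lower on all 4 arrays given FGF19 than on the other 4.

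TNFα alone raised SPRY4, DUSP10 and DUSP6 relative to Mock. These 3 of the 10 feedback genes passed, all in the upward direction, when 1.06% of all probesets passed, 0.967% higher and 0.0961% lower. The median log2 difference was 0.37 over the 10 genes and −0.04 over all probesets, and all 10 differences were above 0, as were 14175 of those of all 33297 probesets. The difference of DUSP8 turned to −0.0033 without Mock replicate 2 and to −0.007 without TNFα replicate 1, so that the count of 10 rests on single arrays. This comparison asks which feedback genes answer to an inflammatory cytokine without added growth factor.

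SPRY4, the Sprouty gene with the largest change, had signals of 62.6 and 49.6 in Mock and 210.5 and 225 with TNFα. Its Mock signals lay at the 38.3th and 31.6th percentile of their arrays, so that it started from a low level. The rise was 3.91-fold (log2 difference 1.97 ± 0.15, adjusted p = 0.00377), and it was called in 15 of 16 alternative settings. Here and below, ± gives the standard error from limma, with 2 arrays in a group. DUSP10, the phosphatase that prefers JNK and p38, went from 82.7 and 91.5 to 185 and 169. This was a 2.03-fold rise (log2 difference 1.02 ± 0.10, adjusted p = 0.0106). DUSP6, the cytoplasmic ERK phosphatase, read 259 on both Mock arrays and 474 and 446 with TNFα. Its 1.78-fold rise (log2 difference 0.83 ± 0.09, adjusted p = 0.0118) stands between Mock arrays that hardly differed and TNFα arrays that both lay well above them. The calls of DUSP6 and DUSP10 rested on all 4 arrays compared. Without 1 of them, the adjusted p of DUSP6 was 0.0818 to 0.119 and that of DUSP10 0.0688 to 0.103, with log2 differences of 0.78 to 0.87 and 0.95 to 1.10. When the fit held only the Mock and TNFα arrays, SPRY4 also passed no longer (adjusted p = 0.0544).

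The nuclear ERK phosphatase gene DUSP5 had signals of 607 and 455 in Mock and 896 and 758 with TNFα. The groups did not overlap, as was so for 51.5% of all probesets, but the log2 difference of 0.65 (95% interval 0.27 to 1.03) did not pass (adjusted p = 0.177). SPRED2 and SPRY2 had log2 differences of 0.43 (0.16 to 0.69, adjusted p = 0.207) and 0.32 (0.07 to 0.56, adjusted p = 0.295). DUSP1 read 1242 and 1276 in Mock and 1275 and 1299.9 with TNFα, a log2 difference of 0.03 with an interval of −0.23 to 0.30. At this time DUSP1 therefore lay within 1 standard error of its Mock level. SPRED1, DUSP4 and DUSP8 had log2 differences of 0.11, 0.11 and 0.13, and the interval of DUSP8 reached from −0.54 to 0.81.

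FGF19 without TNFα lowered DUSP1 and raised SPRED2, SPRED1, SPRY4 and DUSP10 relative to Mock. Thus 5 of the 10 genes passed, 4 higher and 1 lower, and much of the array passed too, at 32.2% of all probesets, 18.2% higher and 14.1% lower. The summed signal of the epithelial markers also differed with FGF19, at 8663.1 to 8734.1 with TNFα and 6784.1 to 6947.3 with FGF19 + TNFα besides the values above, and its part in the results was not tested. After quantile normalization the split was 2 higher and 1 lower, since DUSP10 and SPRY4 no longer passed (adjusted p = 0.0705 and 0.0825). The median log2 difference was 0.18 over the 10 genes and 0.08 over all probesets. After quantile normalization these were 0.22 and −0.0024, and after cyclic loess normalization 0.19 and 0.0027. The comparison reads FGF19 and heparin together.

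DUSP1 read 1242 and 1276 in Mock and 523 and 633 with FGF19. It fell 2.19-fold (log2 difference −1.13 ± 0.11, adjusted p = 0.00277), and the call held in all 16 alternative settings. DUSP1 was among the genes that the study selected on these arrays by their change from Mock, so that this fall is no independent evidence. SPRED2, one of the genes for RAS inhibitors that work through neurofibromin, read 307 and 357 in Mock and 579.9 and 586 with FGF19. It rose 1.76-fold (log2 difference 0.82 ± 0.11, adjusted p = 0.00401), also in all 16 settings. Both genes thus separated the groups by far more than the spread between replicates, in opposite directions.

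SPRED1 read 613 and 609 in Mock and 786 and 748 with FGF19, a 1.25-fold rise (log2 difference 0.33 ± 0.08, adjusted p = 0.03). SPRY4 read 74.8 and 89.8 with FGF19, 1.47-fold above Mock (log2 difference 0.56 ± 0.15, adjusted p = 0.032). DUSP10 read 106 and 116, 1.27-fold above Mock (log2 difference 0.35 ± 0.10, adjusted p = 0.0443). These 3 calls were near the threshold and many settings ended them. Leaving out 1 array gave adjusted p-values up to 0.202 for DUSP10 (without Mock replicate 1) and 0.147 for SPRY4 and 0.123 for SPRED1 (both without Mock replicate 2). The DUSP10 call was lost without any 1 of the 8 arrays, while SPRED1 passed without FGF19 replicate 2 or either FGF19 + TNFα array, and SPRY4 passed without Mock replicate 1 or FGF19 replicate 1.

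DUSP6 and SPRY2, genes commonly read as ERK output, did not pass with FGF19. DUSP6 read 288 and 310.1, above both Mock arrays, with a log2 difference of 0.21 (95% interval 0.00 to 0.42, adjusted p = 0.115). SPRY2 read 316 and 319.9 in Mock and 341 and 366 with FGF19 (log2 difference 0.15, interval −0.10 to 0.40, adjusted p = 0.305). DUSP5, which read 474 and 477 with FGF19, had a log2 difference of −0.14 (−0.52 to 0.24). The dim gene DUSP4, whose signals lay between 37.6 and 49.8 on all 8 arrays, had −0.12 (−0.44 to 0.21). DUSP8 had −0.35 (−1.03 to 0.32), with FGF19 arrays at 168 and 95.8 that bracketed the lower Mock array. The groups did not overlap for 7 of the 10 genes, against 66.9% of all probesets.

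When FGF19 was given with TNFα, DUSP1 and DUSP6 were lower and SPRED2 higher than with TNFα alone. These 3 of 10 genes stand beside 32.4% of all probesets, 19.4% higher and 12.9% lower, which is no larger a share. The arrays of both groups did not overlap for 8 of the 10 genes, against 70% of all probesets. The median log2 difference was −0.21 over the 10 genes and 0.10 over all probesets. This comparison uses no array of the comparison of FGF19 with Mock, so that the values of both can be set side by side, although all came from the same fit.

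DUSP1 read 588 and 592 with FGF19 + TNFα, far below its TNFα signals, and was 2.18-fold lower (log2 difference −1.13 ± 0.11, adjusted p = 0.00348). Its difference without TNFα was also −1.13. The call held in all 16 settings, but the study also selected DUSP1 on these arrays for this comparison, and the same limit holds. SPRED2 read 471 and 421 with TNFα, against 656 and 698 with both agents, a 1.52-fold rise (log2 difference 0.60 ± 0.11, adjusted p = 0.0103) beside 0.82 without TNFα. Its call was lost without TNFα replicate 2 or FGF19 + TNFα replicate 2 (adjusted p = 0.061 and 0.0619).

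DUSP6 was 1.26-fold lower with FGF19 + TNFα, at 360.3 and 372 against 474 and 446 (log2 difference −0.33 ± 0.09, adjusted p = 0.0303), where FGF19 without TNFα had given 0.21. This call was lost without any 1 of the Mock, TNFα or FGF19 + TNFα arrays, with adjusted p-values from 0.0592 to 0.148. SPRY2 read 366 and 427 with TNFα, against 322 on both FGF19 + TNFα arrays. Its log2 difference of −0.30 (−0.55 to −0.05) did not pass (adjusted p = 0.0705), and DUSP5, at 625 and 631, had −0.39 (−0.77 to −0.01, adjusted p = 0.104). SPRED1, SPRY4 and DUSP10 did not pass, with log2 differences of 0.20, −0.14 and 0.11, although SPRED1 read 648 and 671 with TNFα and 726 and 784 with both agents.

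With FGF19 already present, TNFα raised SPRY4 and no other feedback gene passed. This was 1 gene of 10, when 0.282% of all probesets passed, 0.279% higher and 0.003% lower. The arrays did not overlap for 6 of the 10 genes, against 28.5% of all probesets. SPRY4 went from 74.8 and 89.8 to 191 and 205, a 2.42-fold rise (log2 difference 1.27 ± 0.15, adjusted p = 0.0435), and the order of its group means was Mock, FGF19, FGF19 + TNFα, TNFα. Of its neighbours in that order, FGF19 + TNFα and TNFα did not pass the test, although both TNFα arrays lay above both FGF19 + TNFα arrays. The call of SPRY4 against FGF19 was lost without any 1 of the 8 arrays (adjusted p = 0.0724 to 0.336). DUSP10 read 185 and 197 with both agents, 1.72-fold above FGF19 (log2 difference 0.78, interval 0.54 to 1.03), but missed the threshold (adjusted p = 0.0674). DUSP5 had a log2 difference of 0.40 (0.02 to 0.78), DUSP6 0.29 (0.08 to 0.50) and DUSP1 0.04 (−0.23 to 0.30), and none of these passed.

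**Figure D2:**
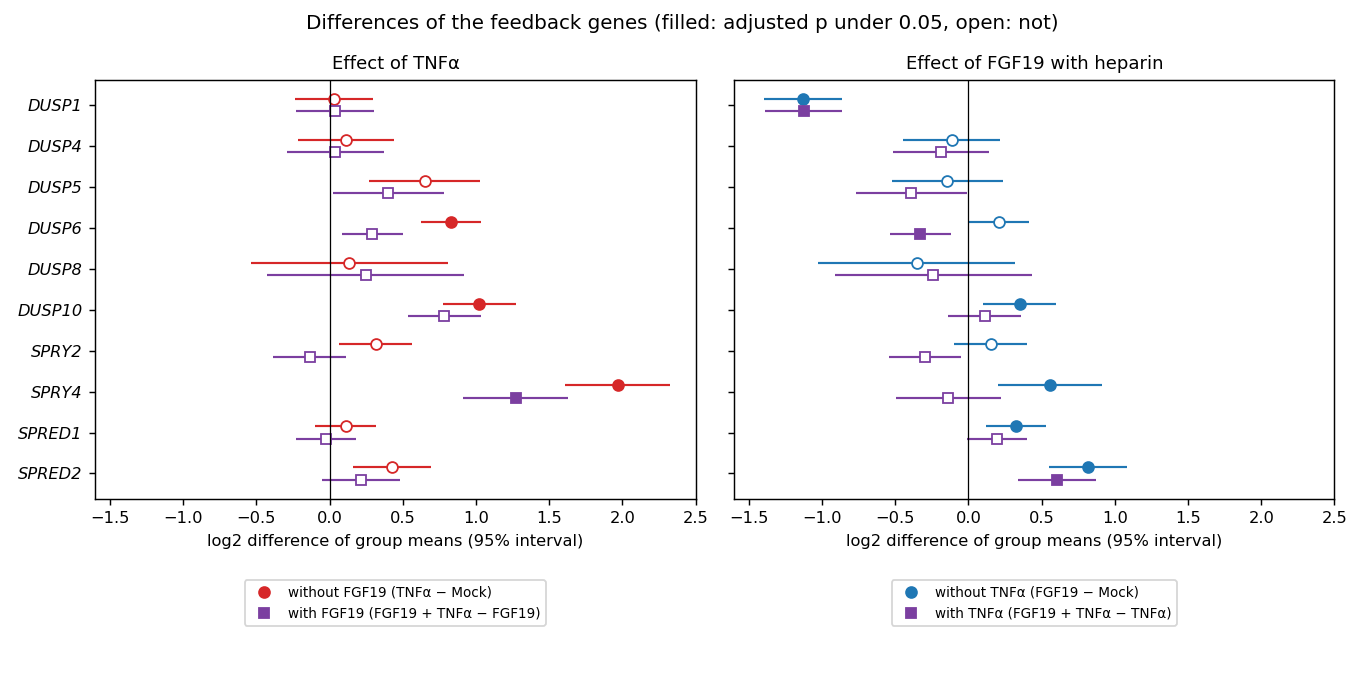
Difference between groups in mean log2 signal (horizontal axis), 1 line per feedback gene, with 95% intervals as bars. The left panel gives the effect of TNFα without FGF19 (red circles) and with it (purple squares), the right panel the effect of FGF19 without TNFα (blue circles) and with it (purple squares), and filled symbols passed at an adjusted p under 0.05. The DUSP1 symbols lie at −1.13 in both cases on the right and near 0 on the left, and SPRY4 lies farthest right in the left panel.

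Whether the effect of TNFα differed with FGF19 was tested as the interaction of both agents. None of the 10 genes passed in limma (0 of all 33297 probesets did), and 3 of the 10 and 5.15% of all probesets had an unadjusted p under 0.05. Without moderation of the variances these were again 0, 3 and 5.08%. The 3 genes were DUSP6 (−0.54 on the log2 scale, 95% interval −0.83 to −0.24, unadjusted p = 0.00397, adjusted p = 0.761), SPRY4 (−0.69, −1.20 to −0.19, adjusted p = 0.951) and SPRY2 (−0.45, −0.80 to −0.10, adjusted p = 0.96). The estimates for DUSP6 and SPRY4 mean a smaller rise with TNFα when FGF19 was present, a difference that these arrays do not establish. DUSP1 had an interaction of 0.00 (−0.37 to 0.38).

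Other genes of the pathway were counted from lists chosen by function, each gene by its brightest probeset. Over all 18417 genes counted in this way, 1.35% passed with TNFα against Mock, 36.9% with FGF19 against Mock and 37.3% with FGF19 + TNFα against TNFα, and no list was tested against these shares. Of 16 measured ERK output genes outside the feedback group, 4 (25% of the list) rose with TNFα and 0 fell. JUNB, an AP-1 subunit gene, rose 2.18-fold with TNFα (adjusted p = 0.0144) and 2.73-fold when TNFα was added to FGF19 (adjusted p = 0.0127). FOSL1, which encodes the AP-1 subunit FRA1, rose 2.07-fold with TNFα (adjusted p = 0.00836), and FOSB and HBEGF, a gene for an EGF receptor ligand, were the others, with log2 differences of 0.89 and 0.81. With FGF19 against Mock, 4 of these 16 genes rose and 7 fell, together 68.8% of the list. FOSL1 rose 1.75-fold (adjusted p = 0.00334), while the ephrin receptor gene EPHA2 fell 2.10-fold (adjusted p = 0.00367) and JUNB 1.42-fold. EPHA2 read 907 and 822 in Mock and 361 and 469 with FGF19. The study had also selected EPHA2 on these arrays by its change from Mock, so that this fall is no independent evidence. The transcription factor gene ETV5, an ERK target in many cells, had a log2 difference of 0.56 (adjusted p = 0.0111), and EGR1 of −0.33 (adjusted p = 0.0572). With FGF19 + TNFα against TNFα, 3 were higher and 7 lower, together 62.5% of the list. The median log2 differences of the list were 0.35 for TNFα and −0.26 for FGF19 against Mock, beside −0.04 and 0.06 over all genes.

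Among 15 other dual-specificity phosphatase genes and their relatives, 0 passed with TNFα in limma. There, 2 had an unadjusted p under 0.05, as had 12.5% of all probesets. Against Mock, 1 rose and 4 fell with FGF19. These 5 genes were 33.3% of the list, no larger a share than the 36.9% of all genes. STYXL1, a pseudophosphatase gene, fell 1.71-fold (442 and 425 in Mock, 237 and 272 with FGF19, adjusted p = 0.00403), DUSP3, which encodes the small phosphatase VHR, fell 1.36-fold and STYX rose 1.30-fold. SPRY1 was lower with FGF19 than in Mock (log2 difference −0.43, adjusted p = 0.0217), and SPRED3 and the dim SPRY3 were higher with FGF19 + TNFα than with TNFα (0.58 and 0.46). None of these 3 genes passed with TNFα against Mock in limma, where SPRY1, SPRED3 and SPRY3 had log2 differences of −0.56, −0.41 and −0.34 (adjusted p = 0.0822, 0.299 and 0.264) and all 3 an unadjusted p under 0.05.

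**Figure D3:**
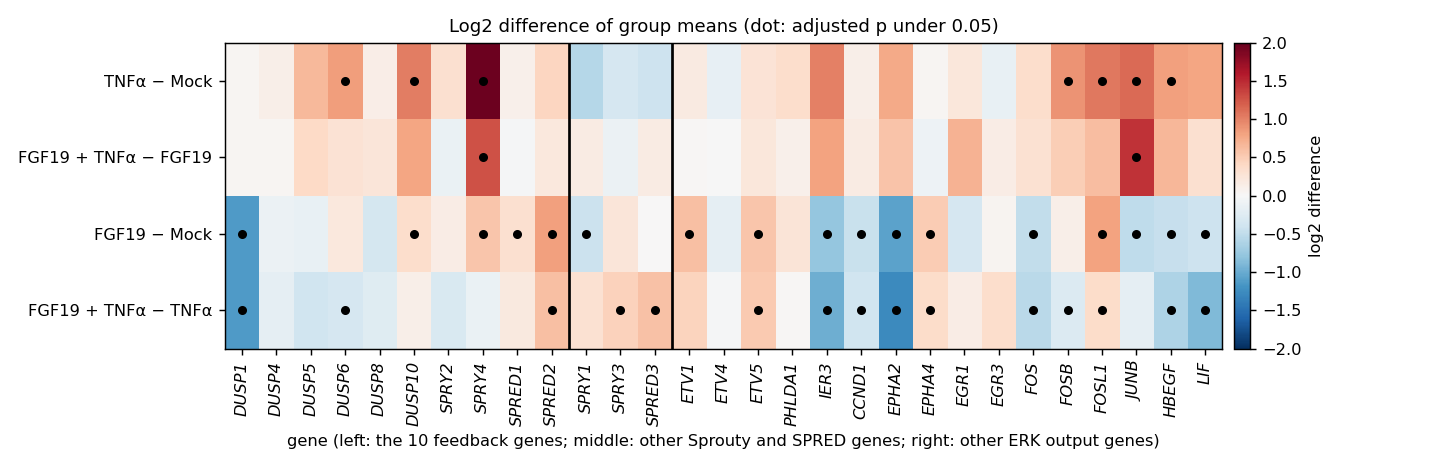
Difference between groups in mean log2 signal (colour, blue below 0 and red above 0) in 4 comparisons (rows) for the 10 feedback genes, the 3 other Sprouty and SPRED genes and the 16 other ERK output genes (columns, separated by black lines), with a dot where the adjusted p was under 0.05. In the top row, SPRY4, DUSP10, DUSP6, FOSB, FOSL1, JUNB and HBEGF carry a dot, and all 7 are red.

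Genes of the pathway itself passed with FGF19 in both directions, and 0 of them with TNFα in limma. There, 6 of them (5 higher and 1 lower) had an unadjusted p under 0.05, as had 12.5% of all probesets. Of 12 measured FGF receptor and adaptor genes, 5 rose and 2 fell with FGF19 against Mock. FGFR4 did not pass there (log2 difference −0.32, adjusted p = 0.0523). With FGF19 + TNFα against TNFα, 5 of the list were higher and 3 lower, among the latter FGFR4 (−0.42, adjusted p = 0.0227). KLB passed in neither comparison (0.29 and 0.21, adjusted p = 0.193 and 0.318). SOS1, the exchange factor that loads RAS with GTP, rose 2.58-fold (338 and 314 in Mock, 949 and 744 with FGF19, adjusted p = 0.00281) and SOS2 1.65-fold. The adaptor gene GAB1 rose 2.04-fold at its brighter probeset, and at its other probeset had a log2 difference of −0.33 (adjusted p = 0.0757). The study had also selected GAB1 on these arrays, for its rise with FGF19 + TNFα over TNFα alone. Of 9 measured genes of the RAS to ERK kinases, 1 rose and 5 fell, among them MAP2K1, which encodes the ERK kinase MEK1, by 1.93-fold (adjusted p = 0.00462), and MAPK3, which encodes ERK1, with a log2 difference of −0.59. RPS6KA1, which encodes an ERK-activated kinase, fell 1.54-fold. Of 12 JNK and p38 kinase genes, 3 rose and 2 fell, with MAPK8 (JNK1) 1.34-fold higher and MAPK13 (p38δ) 1.96-fold lower. MAP2K3, which encodes an activating kinase of p38, was not called with TNFα (log2 difference 0.88, adjusted p = 0.0767). Neither was RASA2, one of the inhibitor genes described next (log2 difference 0.63, adjusted p = 0.0529). Of 14 other inhibitors of the pathway, 6 rose and 4 fell, among them RASA2, a RAS GTPase-activating protein gene, which rose 1.76-fold, and the phosphatase scaffold gene PPP2R1A and the RAS-binding gene RASSF1, which fell 2.53-fold and 2.60-fold. Together, the calls with FGF19 were 58.3% of the receptor and adaptor list, 66.7% of the RAS to ERK list, 41.7% of the JNK and p38 list and 71.4% of the inhibitor list, beside the 36.9% of all genes.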

How the data were processed

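RNA of DU145 cells had been hybridised to 8 arrays (Affymetrix Human Gene 1.0 ST), with 2 for each of the groups Mock, FGF19, TNFα and FGF19 + TNFα, as the sample labels give them. The authors deposited linear signal intensity for 33297 probesets, made with the PLIER method in Affymetrix Expression Console per the submitters' processing notes. Versions and any further normalization are not stated in the sources used here. Before log2, each of the 240 zeros took the lowest signal above 0 on its array (0.01), and no other scaling was applied. A linear model with 4 groups was fitted to all probesets and arrays with lmFit and eBayes of limma 3.58.1 (R 4.3.3). The F test was called at a Benjamini-Hochberg adjusted p of 0.015, following the threshold of the study, and contrasts at 0.05. Probesets were named from the platform annotation (19460 carry 1 symbol), updated through Entrez identifiers to RefSeq symbols. Genes of the pathway lists were represented by their brightest probeset, and up to 3 of each list with the smallest F test p were named. The ERK output genes FOSB, HBEGF, ETV5 and EGR1, and FGFR4 and KLB, were named after their values had been seen. The feedback genes and lists were chosen with earlier results of these data known. The steps were tested on simulated data. As alternatives, arrays were normalized by quantiles or by cyclic loess, 16 was added to each signal, the dimmest 20 percent of probesets were left out, the model was fitted with other variance priors, on the compared groups alone or with a replicate block, and each array was left out in turn. The number of arrays limits the precision. P-values measure the spread between replicate arrays of 1 line. Figures were drawn with matplotlib 3.10.9.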

Additional observations from a re-analysis of the deposited data

How the results depend on the processing

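Of the 940 alternative values computed for single feedback genes, 840 kept their sign and their side of the threshold, 70 lost and 8 gained a call, and 22 changed sign, all of these far from a call. When 1 array was left out, the number of genes that differed among the 4 groups was 2 to 5 (5 with all arrays), the number called with TNFα against Mock 1 to 3 (3), with FGF19 against Mock 2 to 3 (5), with FGF19 + TNFα against TNFα 1 to 3 (3), and with FGF19 + TNFα against FGF19 0 in each case (1). With the compared groups alone, TNFα against Mock gave 0 genes and FGF19 against Mock 2. FGF19 + TNFα gave 2 against TNFα, where DUSP6 lost its call (adjusted p = 0.0575), and 0 against FGF19. This fit has fewer samples to estimate the spread. Quantile normalization and the fit without moderation each gave 3 genes for FGF19 against Mock. Without moderation, SPRED2 also lost its call in the F test (adjusted p = 0.0183). In the same fit DUSP10 lost its call with TNFα against Mock (adjusted p = 0.0508). For FGF19 + TNFα against FGF19, cyclic loess normalization, no moderation and the replicate block gave 0 genes, and 16 added before log2, the filter on dim probesets and the trended and robust prior gave 2, DUSP10 besides SPRY4. SPRY2 gained a call with FGF19 + TNFα against TNFα under the dim filter and the robust prior (adjusted p = 0.0496 and 0.0443). DUSP5 gained an F test call under these and with 16 added (adjusted p = 0.0127, 0.00567 and 0.0118). The cause of these changes was not tested.

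The labels do not say whether replicate numbers pair the arrays, and the main fit did not use them. Deviations of same-numbered arrays correlated at −0.02 to 0.195 over 6 pairs of groups, highest for FGF19 with FGF19 + TNFα. Whether same-numbered arrays shared a batch cannot be told from these values. With the replicate block, DUSP10 with FGF19 against Mock (adjusted p = 0.0549) and SPRY4 with FGF19 + TNFα against FGF19 (adjusted p = 0.119) lost their calls, and the counts in the other comparisons stayed at 5, 3 and 3, with 0 for the interaction.

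Signs changed as follows when 1 array was left out. DUSP8 ranged from −0.007 to 0.27 with TNFα against Mock, from −0.76 to 0.054 with FGF19 against Mock, and from −0.16 to 0.65 with FGF19 + TNFα against FGF19. DUSP5 ranged from −0.35 to 0.065 with FGF19 against Mock. With FGF19 + TNFα against FGF19, DUSP1 ranged from −0.10 to 0.17, DUSP4 from −0.12 to 0.20 and SPRED1 from −0.078 to 0.033. The interaction of DUSP1 ranged from −0.13 to 0.14, that of DUSP4 from −0.23 to 0.090 and that of DUSP8 from −0.29 to 0.52. The DUSP1 interaction was −0.0079 after quantile and −0.0090 after cyclic loess normalization. The median log2 difference of all probesets with FGF19 + TNFα against TNFα moved from 0.10 to 0.01 under both normalizations, while that of the 10 genes went from −0.21 to −0.25 and −0.28. DUSP4 lay between the 21.1th and 32.9th percentile of its arrays, where signal limits what can be seen.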

Other observations

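Other probesets were ranked by how closely their log2 signals over the 8 arrays followed those of a feedback gene, among 4829 probesets that had 1 symbol, differed among the groups and were not among the dimmest. For DUSP6 the 3 closest were NR4A1, which encodes an immediate-early nuclear receptor, AMPD3, an AMP deaminase gene, and ATF3, a stress-induced transcription factor gene (Pearson's r = 0.983, 0.977 and 0.976). For DUSP10 they were the chemokine genes CXCL2 and CXCL1 and RASGRP1, a RAS exchange factor gene (0.995, 0.994 and 0.992). For SPRY4 they were STAT5A, the growth factor gene CSF1 and BAMBI, which encodes a decoy receptor of the TGFβ family (0.994, 0.992 and 0.992). Only 2.2% to 3.15% of the probesets compared reached r = 0.9 with these 3 genes. With SPRED2, 17.9% did, led by UBP1, PALLD and HERPUD1 (0.995, 0.99 and 0.990), and with DUSP1 38.9% did, led by B4GALT3, ADAM15 and NIBAN2 (each 0.999). The 8 arrays share 4 treatments, and these values describe likeness of pattern alone.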
